A study of Mus musculus with 12 samples.

Results

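Cholesterol synthesis in the liver was followed through 7 genes of the 55357 in the count table, taken by their symbols. Hmgcs1, Sqle, Idi1, Lss and Cyp51 encode enzymes of the pathway, and Srebf2 and Insig1 encode its regulators. The 7 genes passed the filter on low counts (17358 genes did) and each has 1 row in the table. They are described over 4 groups of liver RNA-seq libraries from male C57BL/6J mice that were 7 weeks old when a diet of 6 weeks began. All mice carried floxed Ppara alleles (PPARafl/fl). WT mice were AlbuminCre+/+ and lacked the recombinase, and KO mice were AlbuminCreTg/+, in which the albumin promoter drives Cre in hepatocytes and leaves Ppara of other liver cells in place. WT mice on chow gave 4 libraries (WT chow) and WT mice on CDAHFD gave 3 (WT CDAHFD). CDAHFD is a high-fat diet without choline in which defined L-amino acids stand in for protein. KO mice gave 2 libraries on chow (KO chow) and 3 on CDAHFD (KO CDAHFD).

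Cholesterol is built from acetyl-CoA by way of mevalonate, isoprenoid units, squalene and lanosterol. The transcription factor SREBP2, encoded by Srebf2, raises the genes of this pathway when membranes hold little sterol: SCAP then carries it from the endoplasmic reticulum to the Golgi, where proteases release the active part. When sterol is plentiful, the INSIG proteins hold SCAP and SREBP2 back, and Insig1 is itself a target of SREBPs. The liver makes much of the body's cholesterol, and in mice the genes of this pathway also follow feeding and the time of day.

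Sequences before the start of the genes are shown for 3 genes. Hmgcs1 and Srebf2 are shown because their windows hold letters of a sterol regulatory element, and Insig1 because its level differed most between the groups and its window, which holds none of these, has an E-box. They were read from RefSeq (GRCm38.p6), which gave a window of 250 bases before to 50 after the start for 6 of the 7 genes; Sqle has no entry. Capitals mark, on either strand, TCACNCCA (letters of a sterol regulatory element), CCAAT (bound by NF-Y), GGGCGG (bound by Sp1) and CACGTG (an E-box). None of the matches in these 6 windows overlapped another. The stretches lie on the plus strand at chr13:119690174-119690264 for Hmgcs1, chr15:82147067-82147154 for Srebf2 and chr5:28071178-28071321 for Insig1, upstream of the first exon.
Hmgcs1: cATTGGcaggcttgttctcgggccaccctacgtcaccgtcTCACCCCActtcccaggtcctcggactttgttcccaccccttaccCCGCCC
Srebf2: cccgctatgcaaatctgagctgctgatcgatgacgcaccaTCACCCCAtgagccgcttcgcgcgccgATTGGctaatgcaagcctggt
Insig1: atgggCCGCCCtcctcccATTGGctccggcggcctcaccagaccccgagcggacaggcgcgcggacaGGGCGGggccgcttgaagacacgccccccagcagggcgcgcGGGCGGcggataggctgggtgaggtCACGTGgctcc

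TCACNCCA was present in 2 of the 6 windows, 137 bases before the start in Hmgcs1 and 162 bases before it in Srebf2, both times as TCACCCCA. Over all genes with a window, 4.97% of 27025 held it. CCAAT was present in 6 of 6 windows and in 41.1% of all genes, and GGGCGG in 6 of 6 and in 38.2%. CACGTG was present in 1 of the 6, 101 bases before the start of Insig1, and in 8.09% of all genes. Of 15 other enzymes of the pathway, 12 had a window; 1 held TCACNCCA, 11 CCAAT, 11 GGGCGG and 3 CACGTG. These are matches of letters, and binding was not measured.

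Total counts per library ran from 29906785 to 43551003. Values are CPM, the count of a gene relative to the total count of its library after TMM scaling, and each of the 7 genes had at least 1273 counts in every library. A gene is called changed at an adjusted p under 0.05 from edgeR's quasi-likelihood test over all 12 libraries, with Benjamini-Hochberg adjustment over the 17358 genes. Standard errors (SE) are on the log2 scale. The TMM factors ran from 0.729 to 0.827 in WT chow and from 1.03 to 1.26 in the other groups, so scaling by library size alone moved the median log2 difference to WT chow over all genes by 0.40 in KO chow and by 0.56 in WT CDAHFD. With that scaling, 7037 of the 17358 genes were called higher and 1149 lower in KO chow, and 9092 and 1170 in WT CDAHFD. List counts under this scaling are to be read beside these totals. Ppara was at 96.2 to 237.8 CPM in WT chow, 59.5 to 75.5 in WT CDAHFD, 14.4 and 38.7 in KO chow and 20.7 to 51.9 in KO CDAHFD, so each KO library was below every WT library. The KO chow libraries were not alike for the genes of this pathway, and values that rest on them are given for each library.

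The 7 genes did not move as a block. Insig1 was lower in KO chow and in WT CDAHFD than in WT chow, Srebf2 was higher on CDAHFD in both genotypes, and of the 5 enzymes only Lss passed the threshold, in 1 comparison. Relative to WT chow, 1 of the 7 genes was changed in KO chow, where 39.0% of all genes tested were called, 22.0% higher and 17.0% lower. In WT CDAHFD 3 of 7 were changed, 1 higher and 2 lower, against 51.1% of all genes, 26.1% higher and 25.0% lower. In neither was the share of the 7 genes above that of all genes. Which of the 7 were called in KO chow depended on the KO chow library left out, and Idi1, Lss and Cyp51 were further below WT chow without replicate 1. Such a fit rests on 1 KO chow library, and the share of all genes called in it is not given here. Between KO CDAHFD and WT CDAHFD none of the 7 passed edgeR's quasi-likelihood test or DESeq2's Wald test, 1 had an unadjusted p under 0.05, and 0.357% of all genes were called, 0.0864% higher and 0.271% lower. Between KO CDAHFD and KO chow 1 of 7 was changed, against 6.19% of all genes, 3.76% higher and 2.44% lower. The interaction, which asks whether the genotype difference depends on the diet, was past the threshold for 1 of 7 genes and for 23.1% of all genes, 8.63% higher and 14.5% lower. The comparisons with WT chow share its 4 libraries, and are given side by side without a test of their likeness.

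**Figure D1:**
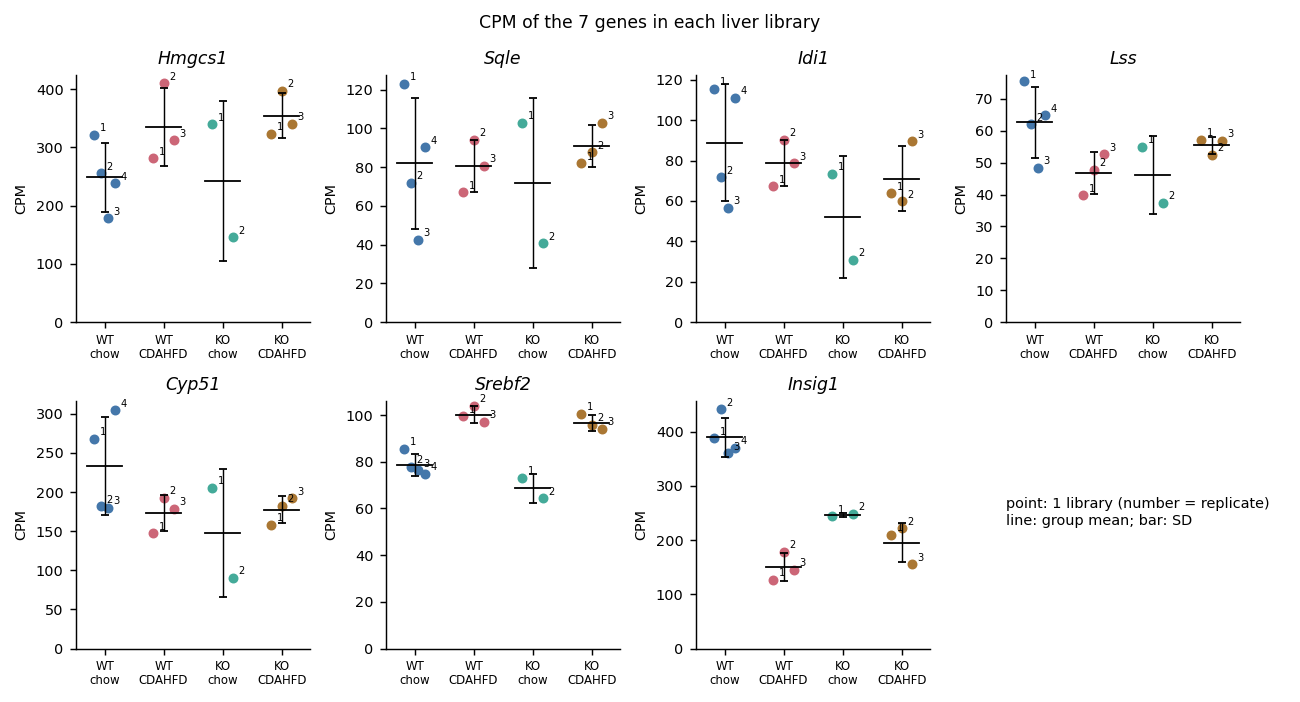
CPM of each of the 7 genes (vertical axis, from 0) in the 12 libraries by group, where a point is 1 library with its replicate number, the line the group mean and the bar the SD. Insig1 lies at 360.2 to 441.3 CPM in WT chow and at 249.1 CPM or less in every other library, while KO chow replicates 1 and 2 lie far apart for Hmgcs1, Sqle, Idi1 and Cyp51.

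Insig1 (ENSMUSG00000045294, chromosome 5 from 28071363 to 28078662, plus strand) encodes the membrane protein that retains SCAP in the endoplasmic reticulum. It was at 388.3, 441.3, 360.2 and 370.1 CPM in WT chow and at 127.4, 179.0 and 145.2 CPM in WT CDAHFD. It was at 244.2 and 249.1 CPM in KO chow and at 209.5, 222.1 and 155.1 CPM in KO CDAHFD. WT chow stood above every other library, the KO chow libraries stood between WT chow and both CDAHFD groups, and KO CDAHFD overlapped WT CDAHFD. The log2 fold change to WT chow was -1.37 in WT CDAHFD (SE 0.15, adjusted p = 9.71e-06 from edgeR's test), a ratio of 0.386. The KO chow value was -0.66 (SE 0.17, adjusted p = 0.00814 from edgeR's test), a ratio of 0.633. The KO chow decrease did not pass the threshold without KO chow replicate 1 (-0.63, adjusted p = 0.0635 from edgeR) or with library size as the only scaling (-0.26, adjusted p = 0.219).

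The diet difference of Insig1 depended on the genotype. In WT mice CDAHFD came with the decrease of 1.37 on the log2 scale, whereas in KO mice the log2 fold change was -0.33 (SE 0.17, adjusted p = 0.273 from edgeR's test), with no overlap between the 2 KO chow and 3 KO CDAHFD libraries. On chow the KO libraries were lower than WT, and on CDAHFD the log2 fold change of KO to WT was 0.38 (SE 0.16, adjusted p = 0.508 from edgeR's test). The interaction was 1.04 (SE 0.23, adjusted p = 0.00593 from edgeR's test), and over fits that each left out 1 library it ran from 0.93 to 1.18 with adjusted p from 0.00153 to 0.0282. Scaled by library size alone it was 0.67 (adjusted p = 0.0424 from edgeR).

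Insig2 encodes the related protein that shares this role and is made from its own gene. Its log2 fold change to WT chow was -0.07 in KO chow (adjusted p = 0.905) and 0.36 in WT CDAHFD (adjusted p = 0.441), both from edgeR's test and not past the threshold. As levels per kilobase of exon, the ratio of Insig1 to Insig2 was 1.09 to 2.06 in WT chow (median 1.55) and 0.372 to 0.459 in WT CDAHFD (median 0.452). It was 0.739 and 1.32 in KO chow and 0.793 to 1.84 in KO CDAHFD (median 0.868). Insig1 was thus the higher of the pair in every WT chow library and the lower in every WT CDAHFD library. The KO groups held libraries of both kinds, with Insig1 the higher in KO chow replicate 2 (1.32) and KO CDAHFD replicate 3 (1.84).

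Srebf2 (ENSMUSG00000022463, chromosome 15 from 82147181 to 82205379, plus strand) encodes SREBP2, the factor that drives the pathway. It was at 85.5, 77.8, 76.3 and 74.8 CPM in WT chow and at 99.5, 104.0 and 97.1 CPM in WT CDAHFD. It was at 73.1 and 64.3 CPM in KO chow and at 100.5, 95.7 and 94.0 CPM in KO CDAHFD. The 6 CDAHFD libraries all stood above the 6 chow libraries, and both KO chow libraries stood below the lowest WT chow library. The increase on CDAHFD was 0.35 in WT mice (SE 0.09, adjusted p = 0.00523 from edgeR's test) and 0.49 in KO mice (SE 0.11, adjusted p = 0.0208 from edgeR's test), as log2 fold changes. The interaction was 0.14 (SE 0.14, adjusted p = 0.512 from edgeR's test), so a difference between the genotypes in this increase was not shown.

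The increase in WT mice passed the threshold in each fit that left out 1 library, with log2 fold changes from 0.33 to 0.42. In KO mice it did not pass without KO chow replicate 1 (0.61, adjusted p = 0.0561), KO chow replicate 2 (0.40, adjusted p = 0.132) or KO CDAHFD replicate 1 (0.47, adjusted p = 0.0703), nor when only the libraries of these 2 groups were fitted (0.50, adjusted p = 0.0829), all by edgeR's test. The KO chow difference to WT chow was -0.19 (SE 0.10, adjusted p = 0.153 from edgeR's test) and became 0.21 with library size as the only scaling.

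Srebf1, the related gene of SREBP1, moved the other way in WT mice: its WT CDAHFD value was -1.21 (SE 0.25, adjusted p = 0.00138 from edgeR's test). Per kilobase of exon, Srebf2 was at 0.210 to 0.502 times Srebf1 in WT chow (median 0.280) and at 0.738 to 0.979 times in WT CDAHFD (median 0.893). The ratio was 0.216 and 0.409 in KO chow and 0.519 to 0.762 in KO CDAHFD (median 0.578). Each CDAHFD library had a higher ratio than every chow library.

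**Figure D2:**
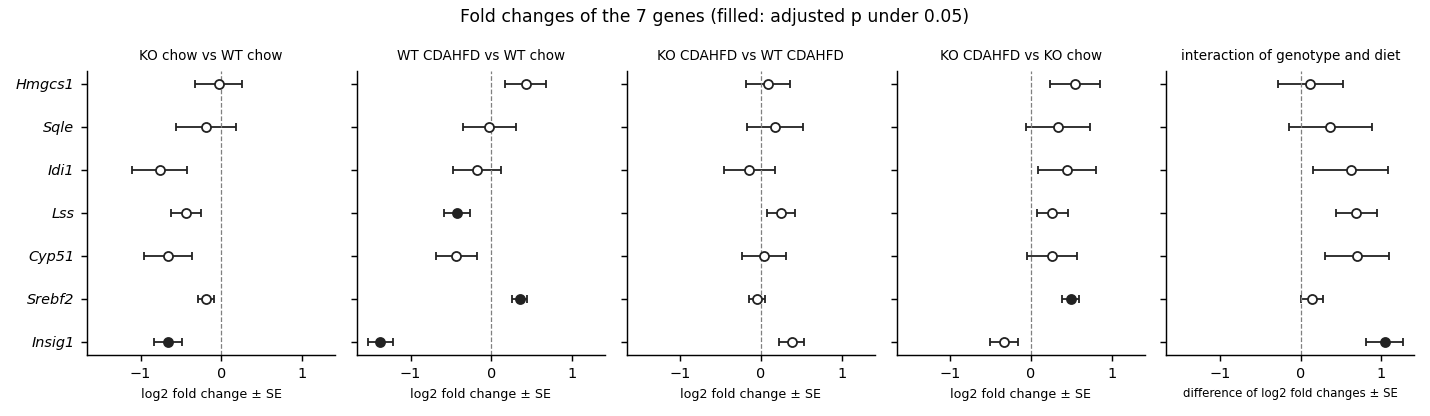
Log2 fold changes of the 7 genes with their SE (horizontal axis) in the 4 comparisons, and the interaction as a difference of log2 fold changes, where filled points have an adjusted p under 0.05. Filled points are Insig1 in KO chow, WT CDAHFD and the interaction (-0.66, -1.37 and 1.04), Srebf2 in WT CDAHFD and between the KO diets (0.35 and 0.49), and Lss in WT CDAHFD (-0.42).

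Hmgcs1 (ENSMUSG00000093930, chromosome 13 from 119690379 to 119708260, plus strand) encodes the cytosolic synthase that makes HMG-CoA. It was at 321.5, 255.9, 178.5 and 238.6 CPM in WT chow and at 281.4, 409.9 and 312.0 CPM in WT CDAHFD. It was at 339.8 and 145.8 CPM in KO chow and at 323.8, 397.6 and 340.8 CPM in KO CDAHFD. The 2 KO chow libraries lay on either side of the whole WT chow range, and the KO CDAHFD libraries lay above it. The log2 fold change to WT chow was -0.03 in KO chow (SE 0.29, adjusted p = 0.939) and 0.43 in WT CDAHFD (SE 0.26, adjusted p = 0.182), and between the KO diets it was 0.54 (SE 0.31, adjusted p = 0.325), none past the threshold of edgeR's test. With library size as the only scaling the WT CDAHFD difference was 0.98 (adjusted p = 0.00714 from edgeR) and the KO chow difference 0.365 (adjusted p = 0.342).

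Idi1 (ENSMUSG00000058258, chromosome 13 from 8885501 to 8892451, plus strand) encodes the isomerase of the isoprenoid units. It was at 115.5, 71.8, 56.8 and 111.0 CPM in WT chow and at 67.2, 90.1 and 78.6 CPM in WT CDAHFD. It was at 73.5 and 30.9 CPM in KO chow and at 63.8, 59.9 and 89.5 CPM in KO CDAHFD. Only KO chow replicate 2 lay outside the WT chow range. The log2 fold change of KO chow was -0.77 (SE 0.35, adjusted p = 0.0984 from edgeR's test), and without KO chow replicate 2 it was -0.27 (adjusted p = 0.598). Without KO chow replicate 1 it was -1.50 (adjusted p = 0.0164 from edgeR's test).

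Sqle (ENSMUSG00000022351, chromosome 15 from 59315077 to 59331192, plus strand) encodes squalene epoxidase, a slow step of the pathway. It was at 123.0, 72.0, 42.5 and 90.1 CPM in WT chow and at 67.0, 94.2 and 80.5 CPM in WT CDAHFD. It was at 102.9 and 40.7 CPM in KO chow and at 82.0, 87.7 and 102.9 CPM in KO CDAHFD. The WT chow libraries alone spanned most of the range of the study. Its log2 fold changes ran from -0.19 to 0.34 over the 4 comparisons, with SE from 0.33 to 0.40 and adjusted p from 0.658 to 0.962 in edgeR's test.

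Lss (ENSMUSG00000033105, chromosome 10 from 76531588 to 76557138, plus strand) encodes lanosterol synthase, which closes the sterol rings. It was at 75.5, 62.0, 48.4 and 64.8 CPM in WT chow and at 39.8, 47.7 and 52.6 CPM in WT CDAHFD. It was at 54.9 and 37.5 CPM in KO chow and at 57.2, 52.4 and 56.8 CPM in KO CDAHFD. WT CDAHFD lay mostly below WT chow but overlapped it through WT chow replicate 3. The log2 fold change of WT CDAHFD was -0.42 (SE 0.16, adjusted p = 0.0454 from edgeR's test), just past the threshold, and it was 0.13 with library size as the only scaling. It passed in 4 of the 12 fits that left out 1 library, where it ran from -0.52 to -0.30 with adjusted p from 0.0165 to 0.185, and it did not pass with DESeq2 (-0.38, adjusted p = 0.0761). Its KO chow value was -0.44 (SE 0.19, adjusted p = 0.0804), and the interaction was 0.69 (SE 0.25, adjusted p = 0.0705), neither past the threshold of edgeR's test.

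Cyp51 (ENSMUSG00000001467, chromosome 5 from 4081145 to 4104746, minus strand) encodes lanosterol 14-alpha-demethylase. It was at 267.7, 182.0, 179.6 and 304.7 CPM in WT chow and at 147.5, 192.6 and 178.3 CPM in WT CDAHFD. It was at 205.8 and 90.3 CPM in KO chow and at 158.2, 182.3 and 191.8 CPM in KO CDAHFD. KO chow replicate 2 was the lowest of the 12 libraries. The log2 fold change of KO chow was -0.66 (SE 0.30, adjusted p = 0.0969 from edgeR's test), -0.18 (adjusted p = 0.659) without KO chow replicate 2 and -1.35 (adjusted p = 0.0065) without replicate 1. Its exons share 166 bases with Akap9 on the other strand, whose counts came to 27.4% of those of Cyp51, and the libraries do not keep the strand, so reads in the overlap cannot be told apart. For the other genes with an overlapping gene, that gene held less than 0.5% of their counts.

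The 2 KO chow libraries stood apart from each other for most enzymes. Replicate 2 was below the lowest WT chow library for 7 of the 7 genes, and replicate 1 was below for 2 (Srebf2 and Insig1), within the range for 4 and above it for Hmgcs1. The ratio of replicate 1 to replicate 2 was 2.33 for Hmgcs1, 2.53 for Sqle, 2.38 for Idi1 and 2.28 for Cyp51, 1.47 for Lss and 1.14 for Srebf2. For Insig1 it was 0.980, so Insig1 was at nearly the same level in each. Among 15 other enzymes of the pathway replicate 2 was below the WT chow range for 13 and above it for 2, while replicate 1 was below for 6, within for 7 and above for 2. The share of all genes outside the WT chow range in each library was not counted, so these counts cannot be set against it.

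**Figure D3:**
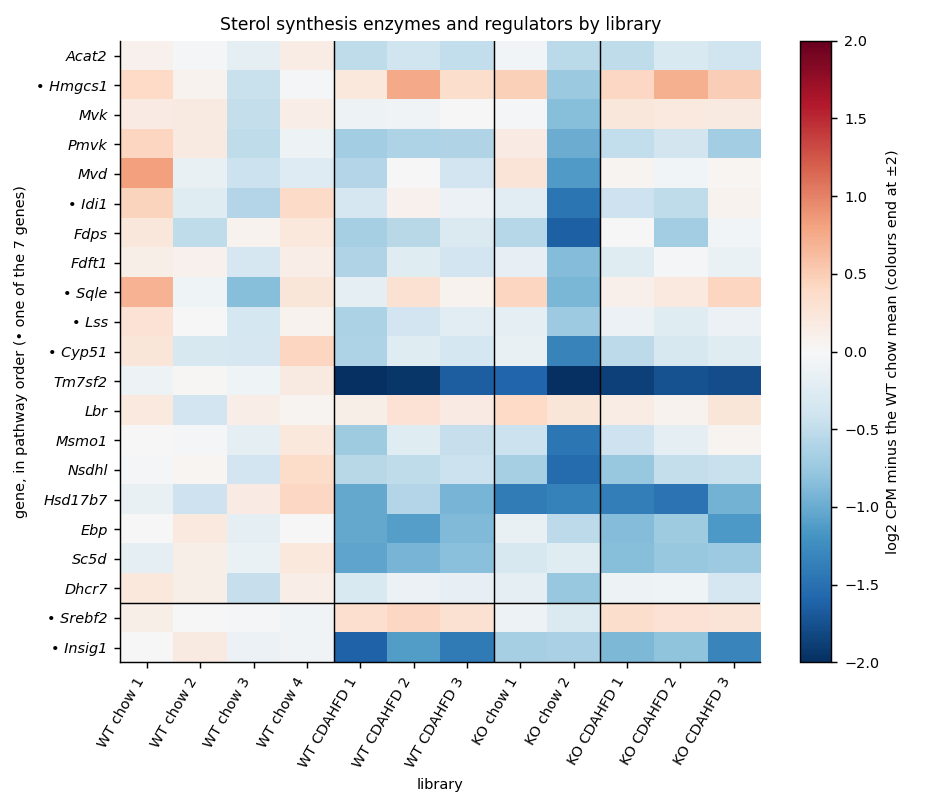
Log2 CPM of sterol synthesis enzymes in pathway order and of Srebf2 and Insig1 (rows), minus the mean of WT chow, in the 12 libraries (columns); blue is lower and red higher than WT chow, a dot marks the 7 genes, and the colours end at ±2. The column of KO chow replicate 2 is blue for every enzyme drawn except Lbr. Tm7sf2 and Hsd17b7 lie below the WT chow mean in every library outside WT chow. So do Acat2, Fdps, Fdft1, Lss, Cyp51, Nsdhl, Ebp, Sc5d, Dhcr7 and Insig1, some of them by little.

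Of 15 other enzymes of the pathway, 6 were changed in KO chow, 1 higher and 5 lower. The total share was close to the 39.0% of all genes called there, 22.0% higher and 17.0% lower. The median log2 fold change of the 15 was -0.42 against 0.00 over all genes. Tm7sf2, a sterol reductase that acts after Cyp51, had the largest decrease, a value of -1.95 on the log2 scale (SE 0.21, adjusted p = 1.75e-05 from edgeR's test). Hsd17b7, Nsdhl, Fdps and Msmo1 fell by 1.41, 1.06, 1.04 and 0.85 on the log2 scale. Fdps was at a low level, 5.19 to 8.58 CPM in WT chow and 4.95 and 2.38 CPM in KO chow replicates 1 and 2. With library size as the only scaling the count was 2 higher and 3 lower. It rose without KO chow replicate 1 and fell without replicate 2, in fits that rest on 1 KO chow library. The share of all genes called in those fits is not given here.

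In WT CDAHFD 8 of the 15 were changed, 1 higher and 7 lower, a total share close to the 51.1% of all genes (25.0% lower), with a median log2 fold change of -0.47 against -0.05 over all genes. Tm7sf2 again fell the most (-1.89, SE 0.18, adjusted p = 3.09e-06 from edgeR's test). Acat2 was the smallest decrease that passed (-0.47, SE 0.13, adjusted p = 0.0072 from edgeR's test). Sc5d and Hsd17b7, which act late in the pathway, fell by 0.95 and 0.87 on the log2 scale. Under library size scaling 3 were higher and 3 lower, where 9092 of all 17358 genes were higher and 1170 lower. Of the 15, none passed between KO CDAHFD and WT CDAHFD in edgeR's test or DESeq2's, and none had an unadjusted p under 0.05. None passed edgeR's test between KO CDAHFD and KO chow, where 5 had an unadjusted p under 0.05, and DESeq2 called 2, both lower.

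The interaction was past the threshold for 6 of the 15, 5 higher and 1 lower, where 23.1% of all genes were called, 8.63% higher and 14.5% lower. The values ran from 0.99 (Hsd17b7) to 2.04 (Tm7sf2) among the higher. The count rose without KO chow replicate 1 and fell without replicate 2, in fits that rest on 1 KO chow library. The share of all genes called in those fits is not given here. Scaling by library size alone gave 1 higher and 2 lower, where 676 of all 17358 genes were higher and 4268 lower.

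Of 8 genes that process and turn over SREBPs, 1 was higher and 4 lower in KO chow, where 39.0% of all genes were called, and in WT CDAHFD it was again 1 and 4, against 51.1%. The medians over the 8 were -0.26 and -0.33. Scap, which carries SREBPs to the Golgi, fell by 1.16 in KO chow (SE 0.18, adjusted p = 2.96e-04) and by 1.07 in WT CDAHFD (SE 0.16, adjusted p = 1.05e-04) on the log2 scale in edgeR's test. Rnf139, a ubiquitin ligase of the endoplasmic reticulum, had log2 fold changes of -0.34 in KO chow and -0.45 in WT CDAHFD, both past the threshold. Mbtps2, the protease of the last cut, rose by 0.43 in KO chow and 0.39 in WT CDAHFD. Under library size scaling 2 were higher and 1 lower in KO chow and 3 higher and 2 lower in WT CDAHFD. The KO chow count was smaller without KO chow replicate 1, a fit that rests on 1 library of that group. None of the 8 passed edgeR's test between KO CDAHFD and WT CDAHFD, none had an unadjusted p under 0.05 and DESeq2 called none. On CDAHFD against chow in KO mice none passed edgeR's test, 1 had an unadjusted p under 0.05 and DESeq2 called 1. The interaction was past the threshold for Scap alone (1.02, SE 0.24, adjusted p = 0.00887 from edgeR's test), where 23.1% of all genes were called.

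Of 7 genes of sterol uptake and transport, 2 were higher and 3 lower in KO chow, against 39.0% of all genes called, and 1 was higher and 1 lower in WT CDAHFD, a share below the 51.1% of all genes. The medians over the 7 were -0.43 and -0.12. Stard4, a cytosolic carrier of cholesterol and a known SREBP target, fell by 1.22 in KO chow (SE 0.27, adjusted p = 0.00323) and by 1.56 in WT CDAHFD (SE 0.24, adjusted p = 1.30e-04) on the log2 scale in edgeR's test. Vldlr, the receptor of very low density lipoprotein, rose by 2.46 in KO chow (SE 0.40, adjusted p = 3.49e-04 from edgeR's test), from a low level of 2.16 ± 1.27 CPM (SD, n = 4) to 12.1 ± 5.29 CPM (SD, n = 2). On CDAHFD Vldlr was at 5.43 to 8.80 CPM in KO and 1.75 to 2.03 CPM in WT, without overlap. The log2 fold change there was 1.92 (SE 0.40, adjusted p = 0.0736 from edgeR's test), not past the threshold. The smallest change that passed in KO chow was that of Scarb1, the receptor of high density lipoprotein (-0.43, SE 0.13, adjusted p = 0.019 from edgeR's test), and in WT CDAHFD that of Tmem97 (0.39, SE 0.12, adjusted p = 0.013). None passed edgeR's test between KO CDAHFD and WT CDAHFD, where 2 had an unadjusted p under 0.05 and DESeq2 called 1, or between KO CDAHFD and KO chow, where none had an unadjusted p under 0.05 and DESeq2 called none. With library size as the only scaling 3 were higher and 1 lower in KO chow and 4 higher and 1 lower in WT CDAHFD. Without KO chow replicate 1 the KO chow count was smaller, and its decreases did not pass. The interaction was past the threshold for Stard4 alone (1.57, SE 0.36, adjusted p = 0.00703 from edgeR's test), where 23.1% of all genes were called.

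Levels per kilobase of exon set the 7 genes in an order. In WT chow Insig1 was the highest at 126.1 CPM per kilobase, followed by Hmgcs1 at 54.1 and Cyp51 at 52.9, Idi1 at 25.3, Sqle at 14.8, Srebf2 at 10.9 and Lss at 5.81. Hmgcs1 and Cyp51 differed by less than their spread between libraries, and so did Sqle and Srebf2. In WT CDAHFD Hmgcs1 stood first at 72.8 CPM per kilobase and Insig1 second at 48.7, and in KO CDAHFD they stood at 77.1 and 63.2. In KO chow Insig1 stood first at 79.7 and Hmgcs1 second at 52.9, and this difference was within the spread of Hmgcs1 between the 2 libraries. The exon length is the union over annotated transcripts, which for Lss comes to 10787 bases and lowers its level.

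How far the 7 genes varied together across the 12 libraries was described by correlation. The Pearson r of log2 CPM of each gene with the mean z-score of the other 6 was 0.85 for Sqle, 0.89 for Idi1, 0.79 for Lss, 0.84 for Cyp51 and 0.62 for Hmgcs1, but 0.25 for Srebf2 and -0.03 for Insig1. Spearman's rho was 0.73, 0.76, 0.59, 0.78, 0.34, -0.17 and -0.05 in the same order. Without KO chow replicate 2, over 11 libraries, r was 0.77, 0.73, 0.69, 0.63 and 0.23 for the enzymes and -0.31 and -0.00 for Srebf2 and Insig1, so the value of Hmgcs1 was low without that library. With the mean z-score of the 5 enzymes alone, over 12 libraries, r was 0.41 for Srebf2 (rho = 0) and 0.12 for Insig1 (rho = 0.16). These values describe the libraries, which fall into 4 groups and share the scaling.

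By a mean z-score of the 5 enzymes over the 12 libraries, the 10 genes with the highest r held 5 other enzymes of the pathway. These were Mvd (r = 0.88, rho = 0.71), Mvk (0.87 and 0.44), Dhcr7 (0.86 and 0.61), Fdft1 (0.86 and 0.80) and Msmo1 (0.83 and 0.66), and the rest were Gm38250, Mfap3l, Slc35f1, Paxbp1 and Gm22270, with r from 0.80 to 0.83. This ranking rested on KO chow replicate 2: without it the first 10 genes of 17351 held 0 of these enzymes, Mvd had an r of 0.78 at rank 11, Fdft1 0.72 at rank 37 and Dhcr7 0.72 at rank 38. Tm7sf2 and Hsd17b7, which like other enzymes of the pathway were low outside WT chow, had an r of 0.40 and 0.29 with the score over 12 libraries.

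**Figure D4:**
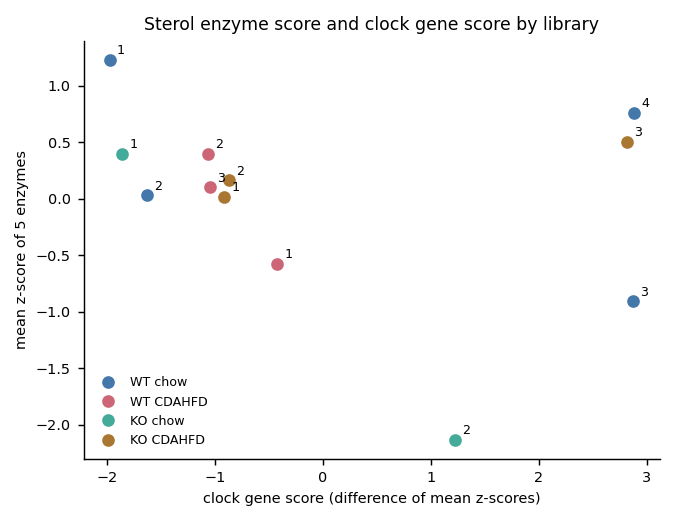
Mean z-score of the 5 enzymes (vertical axis) against a score of clock genes (horizontal axis, a difference of mean z-scores) in the 12 libraries, coloured by group and numbered by replicate. WT chow replicates 1 and 2 lie at clock scores of -1.98 and -1.63 and replicates 3 and 4 at 2.87 and 2.89, and KO chow replicates 1 and 2 lie at -1.86 and 1.23 with enzyme scores of 0.40 and -2.13.

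The libraries also differed in genes of the circadian clock, and the KO chow libraries differed in both. A score of clock genes was -1.98, -1.63, 2.87 and 2.89 in WT chow, -0.42, -1.07 and -1.05 in WT CDAHFD, -1.86 and 1.23 in KO chow and -0.92, -0.87 and 2.82 in KO CDAHFD. The enzyme score was 1.23, 0.03, -0.91 and 0.76 in WT chow, -0.58, 0.40 and 0.10 in WT CDAHFD, 0.40 and -2.13 in KO chow and 0.02, 0.16 and 0.50 in KO CDAHFD. WT chow replicates 3 and 4 had nearly the same clock score and enzyme scores on both sides of 0. The KO libraries with Insig1 above Insig2 per kilobase, KO chow replicate 2 and KO CDAHFD replicate 3, were those with a clock score above 0. In WT chow that ratio was 1.22 and 1.09 in replicates 1 and 2 and 1.89 and 2.06 in replicates 3 and 4. All WT CDAHFD libraries had clock scores below 0, and a link of this ratio with the score was not tested. Over the 12 libraries, in 4 groups, r between both scores was -0.29 and rho -0.28, and for single genes r ran from -0.53 (Hmgcs1) to 0.06 (Insig1). With the clock score as a covariate 2 of the 7 genes were called in KO chow, Insig1 (-0.70, adjusted p = 0.00197) and Lss (-0.50, adjusted p = 0.0268), by edgeR's test. The share of all genes called in that fit is not given here, and without the covariate it was 39.0%. Of 16 clock genes, 0 were higher and 2 lower in KO chow and 0 higher and 3 lower in WT CDAHFD, shares below the 39.0% and 51.1% of all genes called. Their median log2 fold changes were -0.57 and -1.03, against 0.00 and -0.05 over all genes. The clock score differed widely within WT chow and KO chow, so few calls need not mean small differences.

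Markers of hepatocytes and of other liver cells were counted in the same comparisons. In KO chow, where 22.0% of all genes were higher and 17.0% lower, 4 of 5 hepatocyte markers were lower, and 5 of 6 macrophage, 4 of 6 stellate and fibroblast, 4 of 5 cholangiocyte and 2 of 3 neutrophil markers were higher. Of 5 endothelial markers 1 was higher, a share close to that of all genes. Scaled by library size alone, none of the 5 hepatocyte markers was lower in KO chow in edgeR's test. Fewer than 4 were lower without KO chow replicate 1, a fit that rests on 1 library of that group. In WT CDAHFD, where 26.1% of all genes were higher and 25.0% lower, 5 of 5 hepatocyte and 2 of 5 endothelial markers were lower, and 5 of 6 macrophage, 4 of 6 stellate and fibroblast, 5 of 5 cholangiocyte and 2 of 3 neutrophil markers were higher. Of 4 T cell markers 2 were higher and 1 lower in KO chow and 1 higher and 1 lower in WT CDAHFD, and of 3 B cell markers none passed edgeR's test in either, had an unadjusted p under 0.05 or was called by DESeq2. The summed T cell markers were low, at 3.94 to 6.74 CPM in WT chow, 4.30 to 5.15 in WT CDAHFD and 3.64 and 5.66 in KO chow. Of the 3 neutrophil markers 2 were tested, and all 3 summed to 0.850 to 7.73 CPM in WT chow.

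The summed hepatocyte markers lay at 78870 to 98181 CPM in WT chow, 41210 to 50939 in WT CDAHFD, 68338 and 78674 in KO chow and 39056 to 53219 in KO CDAHFD. The summed macrophage markers lay at 270.1 to 509.8, 1316 to 1856, 994.2 and 1164, and 1245 to 1466 CPM, and those of stellate cells and fibroblasts at 178.2 to 254.9, 1277 to 1361, 1081 and 1245, and 1380 to 1897 CPM, in the same order of groups. Alb and the other hepatocyte markers were present in every group of these livers, and of all markers 1 neutrophil gene in WT chow was at 0 throughout a group. In bulk tissue, fewer cells of a type and less RNA per cell cannot be told apart, and the part of these markers in the values of the 7 genes was not tested.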

How the data were processed

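Poly-A selected liver RNA was sequenced in non-directional libraries. Per the labels' processing notes, the authors checked reads with FastQC 0.11.5, aligned them to GRCm38 with STAR 2.7.3a and used DESeq2. The authors deposited unnormalized read counts per Ensembl gene (unit: counts). The counting program and annotation release are not given in the sources used here. Groups and replicate numbers came from the sample titles. The study's methods state 3 mice per treatment group, while the labels give 4, 3, 2 and 3 libraries. Libraries were treated as separate mice. The p-values set a group difference against the spread between libraries, which was estimated over all 4 groups together. For KO chow, with 2 libraries, that spread rests largely on the other groups. The labels name no batch.

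The 7 genes, the lists and the tests were chosen with earlier results of these data known. Symbols were matched through GENCODE M21, which held 52081 of the 55357 identifiers, and 110 of 110 listed genes were found. In R 4.3.3, edgeR 4.0.16 filtered genes (filterByExpr) and scaled libraries (TMM, factors from 0.729 to 1.26), and a quasi-likelihood model with a mean per group was fitted over the 12 libraries. The SE was derived from the log2 fold change and the F statistic (absolute change over the root of F). Depth ran from 29906785 to 43551003 counts. Alternatives were RLE factors, library size only, no filter, DESeq2 1.42.0, only the groups compared, a replicate block, a clock score covariate and leaving out each library. The likeness ranking without KO chow replicate 2 and the list counts under other settings were chosen after seeing the data. Log2 CPM used a prior count of 2. Figures and counts used Python 3.11.15, pandas 2.3.3 and matplotlib 3.10.9. The steps were tested on simulated data.

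Named genes are the 7 genes in every comparison, of each list those past the threshold with the largest and smallest change, and the 10 genes most like the enzyme score. Further genes of the lists were named after their values were seen. The score of clock genes is a difference of mean z-scores. Motifs were searched in RefSeq windows (GRCm38.p6). Values of 2 listed genes are not reported here, though the list counts hold them.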

Additional observations from a re-analysis of the deposited data

Results flagged for a closer look

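One result was singled out because the same contrast differed between groups. The genotype difference of Insig1 was -0.66 on the log2 scale on chow and 0.38 on CDAHFD, and the difference between these, the interaction, was 1.04 (SE 0.23, edgeR's quasi-likelihood test, adjusted p = 0.00593). Seen by diet, both CDAHFD groups were below their chow group in every library, with log2 fold changes of -1.37 in WT and -0.33 in KO. No library of WT chow, the only group of 4, stood apart from the others for any of the 7 genes by Dixon's test; the groups of 2 and 3 libraries were not tested.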

How the results depend on the processing

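Insig1 in WT CDAHFD and its interaction, and Srebf2 in WT CDAHFD, kept their direction and passed the threshold in all fits tried. The number of the 7 genes called in KO chow against WT chow was 1, and 0 with library size as the only scaling, 3 with no filter on low counts, 2 with the clock score as a covariate and 1 to 3 when a library was left out. The shares of all genes called with no filter and with the clock score are not given beside these counts. In WT CDAHFD the number was 3, and 2 to 3 when a library was left out. Between KO CDAHFD and KO chow it was 1, 0 with only the groups compared and 0 to 1 when a library was left out, and for the interaction it was 1, 2 with the clock score and 1 to 3. Over the 5 contrasts, fits that left out a library kept direction and call for 382 gene values, made 7 past the threshold, took 12 below it and reversed 19, and the other fits gave 210, 5, 7 and 16.

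With library size as the only scaling the direction reversed in KO chow for Hmgcs1 (0.365), Sqle (0.21) and Srebf2 (0.21), in WT CDAHFD for Sqle (0.53), Idi1 (0.39), Lss (0.13) and Cyp51 (0.13), and in the interaction for Hmgcs1 (-0.24) and Srebf2 (-0.21), on the log2 scale. With no filter Hmgcs1 in KO chow was 0.0081 and Sqle in WT CDAHFD 0.031. Sqle in WT CDAHFD was also 0.016 with RLE factors, 0.025 with only the groups compared and 0.019 with DESeq2. When a library was left out, reversals fell in these ranges: Hmgcs1 -0.75 to 0.45 and Sqle -0.99 to 0.33 in KO chow, Sqle -0.22 to 0.27 and Idi1 -0.32 to 0.0043 in WT CDAHFD, and Hmgcs1 -0.028 to 0.26 and Cyp51 -0.064 to 0.12 between the CDAHFD groups. Between the KO groups they were Sqle -0.18 to 1.18, Idi1 -0.052 to 1.22, Cyp51 -0.22 to 0.99 and Ppara -0.065 to 1.33, and in the interaction Hmgcs1 -0.38 to 0.85 and Sqle -0.16 to 1.18. Apart from the scaling, the cause was not tested.

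Pairing of the libraries by replicate number was not shown: the correlation of deviations of same-numbered libraries ran from -0.24 to 0.27. In groups this small the deviations depend on each other, and those of the 2 KO chow libraries mirror each other. This check therefore cannot exclude a pairing. With the replicate block Sqle in WT CDAHFD was 0.13 and Idi1 0.011, Lss in WT CDAHFD was -0.39 (adjusted p = 0.108 from edgeR), and 5433, 7797, 59, 640 and 3137 genes were called in KO chow, WT CDAHFD, between the CDAHFD groups, between the KO groups and in the interaction.

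Over all genes, 62 were called between the CDAHFD groups, and 215 with no filter, 154 with only the groups compared, 159 with the clock score, 244 with DESeq2 and 26 to 75 when a library was left out. Between the KO groups 1075 were called, and 581 with only the groups compared, 1744 with the clock score, 1885 with DESeq2 and 233 to 1437 when a library was left out, and in KO chow against WT chow 4320 to 7128. Library size as the only scaling gave 7037 higher and 1149 lower genes in KO chow (3814 and 2949 with TMM), 9092 and 1170 in WT CDAHFD (4522 and 4341), 1245 and 138 between the KO groups (652 and 423) and 676 and 4268 in the interaction (1498 and 2513). Of the 10 genes most like the enzyme score, 5 were other enzymes of the pathway, and 0 without KO chow replicate 2, a setting chosen after seeing the data. The interaction was not run with only the groups compared, since it needs all 4. With 2 KO chow libraries, differences that rest on this group have the least precision.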

Other observations

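Of 8 genes of fatty acid synthesis, which SREBP1 is known to control, 4 were lower in KO chow, where 39.0% of all genes were called and 17.0% were lower, and 7 in WT CDAHFD, where 51.1% were called and 25.0% were lower. Their median log2 fold changes were -0.71 and -1.40. With library size as the only scaling 1 was lower in KO chow, and the count was also smaller without KO chow replicate 1 or without replicate 2. Thrsp, a regulator of lipogenesis, was at 78.7 to 137.2 CPM in WT chow, 5.57 to 7.08 in WT CDAHFD, 24.0 and 16.0 in KO chow and 11.8 to 14.6 in KO CDAHFD. Scd1, the stearoyl-CoA desaturase, was at 1919 to 5080 CPM in WT chow, 26.1 to 89.6 in WT CDAHFD, 1781 and 3371 in KO chow and 89.7 to 115.9 in KO CDAHFD, so its KO chow libraries lay within or just below the range of WT chow. Between KO CDAHFD and KO chow 3 were lower, where 6.19% of all genes were called and 2.44% were lower. The largest decrease there was that of Scd1 (log2 fold change -4.68, adjusted p = 3.92e-04 from edgeR's test). On CDAHFD, between the genotypes, edgeR called none, 3 had an unadjusted p under 0.05 and DESeq2 called 1. The interaction was past the threshold for Thrsp (3.54, adjusted p = 9.85e-06) and Acacb (1.81, adjusted p = 0.00498) in edgeR's test. Of all genes, 23.1% were called there and 8.63% were higher.

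Of 6 targets of the oxysterol receptor LXR, 1 was higher and 1 lower in KO chow, a share below the 39.0% of all genes called, and 1 was higher and 3 lower in WT CDAHFD, against 51.1% of all genes. Abcg1, an exporter of cholesterol, was at 7.18 to 11.3 CPM in WT chow, 37.5 to 40.3 in WT CDAHFD, 22.4 and 28.6 in KO chow and 29.5 to 39.0 in KO CDAHFD, and Abcg8, a part of the exporter into bile, was at 78.5 to 210.4, 37.5 to 49.0, 24.1 and 57.1, and 21.2 to 39.1 CPM. Their log2 fold changes were 1.55 (adjusted p = 2.59e-05) and -1.91 (adjusted p = 0.00469) in KO chow by edgeR's test. The decrease of Abcg8 did not pass without KO chow replicate 1, a fit that rests on 1 KO chow library. With library size as the only scaling 2 of the 6 were higher and 1 lower in KO chow. Within WT chow Abcg8 was at 78.5 and 114.4 CPM in replicates 1 and 2 and at 210.4 and 208.7 CPM in replicates 3 and 4, which differed in clock score. Abcg1 was also the 1 target whose interaction passed (-1.70, adjusted p = 3.64e-04 from edgeR's test), where 23.1% of all genes were called. Of 6 genes of the isoprenoid branch that leads to other products than sterol, none passed edgeR's test in KO chow, where 1 had an unadjusted p under 0.05 and DESeq2 called none, and in WT CDAHFD Pdss2 was lower (-0.44, adjusted p = 0.00856 from edgeR's test). With library size as the only scaling 3 were higher in KO chow and 5 in WT CDAHFD, and none lower. Of all 17358 genes, 7037 and 9092 were higher under this scaling.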
